A study of Mus musculus with 22 samples.

Results

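The response of ribosome footprints on coding sequences (CDS) to depletion of Denr was described in NIH3T3 cells, a fibroblast line from mouse embryos. It comprises the CDS values of 10516 genes in the 11 RPF-seq libraries, of 22 libraries in the series. The other 11 libraries are RNA-seq libraries of the same lysate pools and served to set the RNA change of a gene beside its footprint change. The 6 knockdown libraries came from cells transduced with a lentiviral pLKO.1puro vector for Denr shRNA1 (3 libraries) or Denr shRNA2 (3 libraries). The 5 control libraries came from cells with the same kind of vector carrying a scramble shRNA without a target (3 libraries) or an shRNA against Gfp (2 libraries), a gene of jellyfish. All cells were selected with puromycin, 1 dish of confluent cells was used for each replicate, and cycloheximide was given for 2 min before lysis.

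DENR forms a heterodimer with MCTS1 that acts on the small ribosomal subunit after a ribosome has terminated. It helps to remove the deacylated tRNA and allows the subunit to initiate again at a downstream start codon, as is needed on mRNAs whose main CDS follows an upstream open reading frame (uORF). EIF2D joins the functions of both partners in a single protein. In ribosome profiling, the number of footprints on a CDS follows both the abundance of the mRNA and the rate at which ribosomes enter and traverse it, so a footprint change alone does not tell these apart.

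The libraries held 10006905 to 20283926 reads on the CDS of these genes, and a gene had a median of 368 to 726.5 CDS reads per library. Replicates of 1 shRNA shared an R2 of 0.981 to 0.992 on the log2 scale. The median log2 footprint value of a library averaged 4.53 ± 0.0115 over the 6 knockdown libraries and 4.52 ± 0.0253 (SD) over the 5 control libraries (exact two-sided permutation test, p = 0.777). As the values are relative to the library, a shift common to all genes cannot be seen in them. Fibroblast markers were present, 11 of 12 in the list, and their summed level was 13120 to 14057 RPKM after knockdown and 13490 to 14021 RPKM in the controls. Few markers of other lineages were measured, with Lyz2 and Cd14 the measured leukocyte markers (82.5 to 97.0 RPKM after knockdown, 68.7 to 83.4 RPKM in the controls) and none of the adipocyte and neural markers measured. In bulk lysates fewer cells of a type and less RNA per cell cannot be told apart. The control shRNAs differed from each other on the CDS, where 892 genes were called between the Gfp and scramble libraries (limma, adjusted p below 0.1 in a fit of the 4 shRNA groups).

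Denr itself checks the labels. Its CDS footprints (ENSMUSG00000023106, chr5:123907175-123928835, plus strand, GRCm38) were 43.2, 30.9 and 27.1 RPKM with shRNA1 and 9.25, 13.2 and 12.8 RPKM with shRNA2. The controls had 173, 179 and 152 RPKM with scramble shRNA and 157 and 154 RPKM with Gfp shRNA. All 6 knockdown libraries lay far below all 5 controls, and the shRNA2 libraries below those of shRNA1. The change was -3.05 ± 0.32 on the log2 scale (SE), 8.26-fold lower (limma, adjusted p = 0.000445), beside an RNA change of -2.75 ± 0.25 (adjusted p = 0.00035). Eif2d fell by 0.20 on the log2 scale (adjusted p = 0.0616) with no RNA change past the test (0.00, adjusted p = 0.991), while the groups overlapped, from 26.5 to 30.6 RPKM after knockdown and 29.9 to 34.5 RPKM in the controls. Mcts1, the partner of DENR, had a change of 0.25 ± 0.14 that did not pass the test (adjusted p = 0.294), with 14.6 to 20.9 RPKM after knockdown and 11.7 to 22.3 RPKM in the controls.

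Across all genes, CDS footprints fell in 478 genes (4.55% of those tested) and rose in 575 (5.47%) at an adjusted p below 0.1 (limma on log2 of RPKM + 0.1). All 6 knockdown libraries were below all 5 controls in 207 genes (1.97%) and above them in 261 (2.48%). Most changes were small: 39 of the genes that fell and 80 of those that rose changed by at least 1.5-fold, and 10 and 21 by at least 2-fold. The median change of the genes that fell was -0.31 (quartiles -0.42 and -0.24) and that of the genes that rose 0.33 (quartiles 0.25 and 0.47), beside a median of 0.01 over all genes. The controls bear on these counts. With the scramble libraries alone as control 1181 genes fell and 1470 rose, and with the 2 Gfp libraries alone 47 fell and 45 rose. A fit of the 4 shRNA groups, which takes the differences between the controls and between both Denr shRNAs out of the residual spread, called 1235 lower and 1326 higher, among them all 478 and all 575. Its estimates are those of the main fit, so that overlap is no separate support. Its p-values leave out the spread between shRNAs of a side. Without Gfp replicate 2 the counts were 952 and 994, without scramble replicate 1, 2 or 3 they were 217 and 267, 229 and 290, and 300 and 345, without shRNA1 replicate 2 310 and 352, without shRNA2 replicate 1 324 and 374, and without shRNA2 replicate 2 289 and 333. With voom on the recovered reads, which scales the libraries in another way, 412 fell and 891 rose, a share of 68.4% higher in place of 54.6%, and the median over all genes was 0.04.

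**Figure D1:**
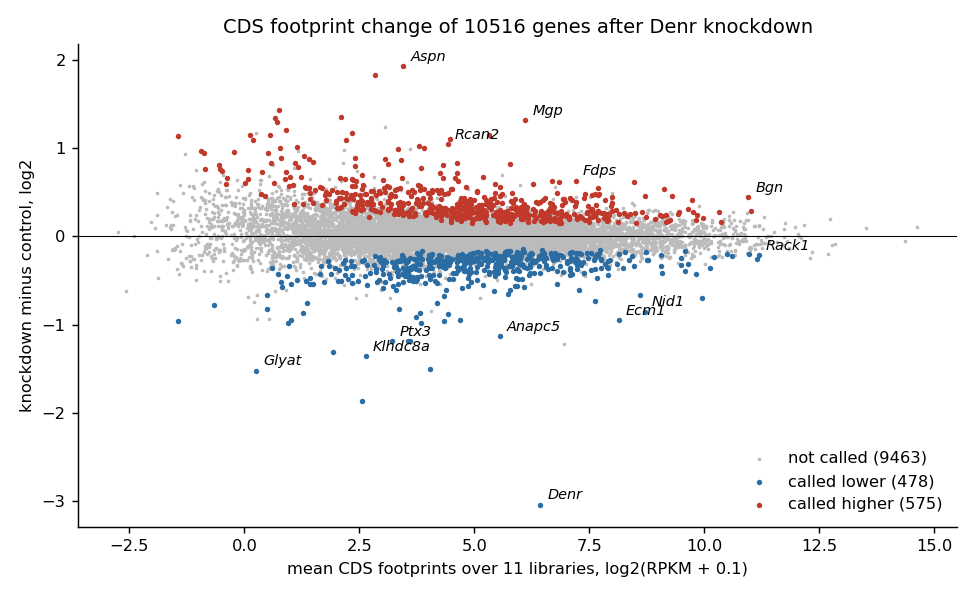
Log2 change of CDS footprints (knockdown minus control, y axis) against the mean footprint level over the 11 libraries (log2 of RPKM + 0.1, x axis) for 10516 genes. Blue points are the 478 genes called lower, red points the 575 called higher and grey points the rest. Denr is the lowest point, at -3.05, and Aspn the highest called one, at 1.94.

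The 15 genes with the largest separated decrease at a mean of at least 1 RPKM were 1.66-fold to 8.26-fold lower. After Denr these were Glyat, Klhdc8a, Ppbp, Ptx3, Anapc5, Serpinb1a, Nppb, Ecm1, Pcgf3, Arl4d, Nid1, Aldh3a1, Adra1b and Rgs2. Among them Ptx3 is a soluble pattern recognition protein, Ppbp a chemokine, Nppb the B-type natriuretic peptide, and Nid1 and Ecm1 are proteins of the extracellular matrix. For 10 of the 15 the RNA was called lower as well, and for 3, Klhdc8a, Anapc5 and Pcgf3, the translation efficiency (TE, the log2 footprint value minus the log2 RNA value of a lysate) was called lower. Glyat rested on few reads, with as few as 3 in a library.

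Ptx3 had 5.47, 5.17 and 5.04 RPKM with shRNA1, 6.71, 6.68 and 5.43 RPKM with shRNA2, 14.8, 14.9 and 11 RPKM with scramble shRNA and 15 and 10.7 RPKM with Gfp shRNA. The groups did not overlap, and the difference between the shRNAs did not pass the test (adjusted p = 0.375). The change was -1.19 ± 0.12 for footprints (adjusted p = 0.000445) and -1.03 ± 0.19 for RNA (adjusted p = 0.0163). Nid1, a link between laminin and collagen IV in basement membranes, had 262, 255 and 249 RPKM with shRNA1, 382, 341 and 363 RPKM with shRNA2, 589, 498 and 539 RPKM with scramble shRNA and 563 and 568 RPKM with Gfp shRNA. Every knockdown library was below every control, with shRNA1 the lower. The change was -0.86 ± 0.11 for footprints (adjusted p = 0.00198) and -0.79 ± 0.13 for RNA (adjusted p = 0.00775). Rgs2, which shortens signalling of Gq-coupled receptors, changed by -0.73 ± 0.08 (adjusted p = 0.000671) beside an RNA change of -0.76 ± 0.08 (adjusted p = 0.000549).

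Klhdc8a, Anapc5 and Pcgf3 are the genes of the 15 with lower TE. Klhdc8a encodes a kelch repeat protein, Anapc5 a subunit of the anaphase-promoting complex, and Pcgf3 a ring finger protein of Polycomb repressive complex 1. Anapc5 footprints were 39.4, 37 and 32 RPKM with shRNA1, 25, 27.7 and 23.5 RPKM with shRNA2, 63.5, 64.1 and 67.2 RPKM with scramble shRNA and 66.7 and 69.8 RPKM with Gfp shRNA. The gap between the groups was wider than the range within either. The footprint change was -1.13 ± 0.12 (adjusted p = 0.000445), the RNA change 0.25 ± 0.07 (adjusted p = 0.101) and the TE change -1.38 ± 0.13 (adjusted p = 0.0012). Klhdc8a footprints were 4.58, 5.00 and 4.84 RPKM with shRNA1, 2.75, 2.99 and 1.75 RPKM with shRNA2, 10.7, 10.8 and 10.0 RPKM with scramble shRNA and 7.85 and 6.25 RPKM with Gfp shRNA. The groups did not overlap, though the Gfp libraries lay nearest to the knockdown. The changes were -1.36 ± 0.25 for footprints (adjusted p = 0.0112), -0.09 ± 0.14 for RNA (adjusted p = 0.813) and -1.27 ± 0.19 for TE (adjusted p = 0.0155). Pcgf3 changed by -0.92 ± 0.12 in footprints (adjusted p = 0.00139) and by -0.02 ± 0.12 in RNA (adjusted p = 0.95).

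The starts of the uORFs and of the CDS are shown for 3 of the genes with lower TE, and the CDS start for Mgp, whose footprints rose. The sequences are those of GENCODE transcripts on GRCm38, 5′ to 3′ as on the mRNA, and capitals mark the start codon. Here a uORF is any ATG of the 5′ UTR whose reading frame reaches a stop codon, from 9 nt upwards. The window of the Klhdc8a uORF lies at chr1:132299152-132299174 and that of its CDS at chr1:132299267-132299289 (plus strand). Those of Anapc5 lie at chr5:122821231-122821253 and chr5:122821138-122821160 (minus strand). The Slc41a1 uORF nearest to the CDS lies at chr1:131830433-131830455 and its CDS start at chr1:131830612-131830634 (plus strand), and the Mgp CDS start lies at chr6:136875718-136875740 (minus strand).
Klhdc8a uORF: gcagcgcgagATGgaggctgaga
Klhdc8a CDS: ccgggctgccATGgaagtgccca
Anapc5 uORF: ggctgcagccATGgcgtaaaggc
Anapc5 CDS: cttcagcccgATGatgaccaacg
Slc41a1 uORF: gcattgcttgATGgggctgtctt
Slc41a1 CDS: cctgcctgtcATGtcctctaagc
Mgp CDS: ccgagacaccATGaagagcctgc

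The Anapc5 uORF has 2 codons before its stop and ends 84 nt ahead of the CDS. The Klhdc8a uORF has 13 codons and ends 73 nt ahead of it, in a 5′ UTR of 651 nt. Slc41a1, a magnesium transporter, has 3 uORFs, of which the one shown has 34 codons and ends 74 nt ahead of the CDS. Mgp has no such uORF in its 93 nt 5′ UTR. Samd4b, an RNA-binding protein of the Smaug family and another gene with lower TE, has none either in the transcript used. Other genes whose footprints rose do have such uORFs, Pmepa1 2 and Tmem119 1. Of the genes that fell together with their RNA, Ptx3 has 1 and Nid1 has 0. These are predictions from sequence, and no footprint position within a 5′ UTR was used. For Klhdc8a the start shown is the one that the paper mutated in a reporter. It reported that the mutation raised the signal and relieved most of the dependence on DENR.

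Among the 15 genes with the largest separated increase, footprints were 1.73-fold to 3.83-fold higher. They were Aspn, Bmf, Mgp, Pcdhb17, Pcdhga6, Col11a1, Rcan2, Tmem119, Cd300lb, Pou6f1, Rab3d, Pmepa1, Gng2, Gadd45a and Dock8. Matrix genes stand among them, with Aspn (asporin) a small leucine-rich proteoglycan, Mgp (matrix Gla protein) an inhibitor of calcification and Col11a1 a fibrillar collagen chain. Rcan2 encodes a regulator of calcineurin, Pmepa1 a TGF-beta target that dampens that pathway, and Bmf a BH3-only protein that promotes apoptosis. The RNA was called higher for 12 of the 15, and the TE for none. Pcdhga6 shares its constant exons, and Pcdhb17 much of its sequence, with other members of the protocadherin clusters, so their values are uncertain.

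Mgp footprints were 111, 102 and 81.4 RPKM with shRNA1, 101, 92.0 and 82.1 RPKM with shRNA2, 32.1, 35.4 and 40.3 RPKM with scramble shRNA and 36.4 and 46.3 RPKM with Gfp shRNA. Every knockdown library was well above every control. The change was 1.32 ± 0.10 for footprints (adjusted p = 3.7e-05) and 1.28 ± 0.14 for RNA (adjusted p = 0.000549), with a TE change of 0.03 (adjusted p = 0.999). Rcan2 had 33.5, 29.4 and 24.9 RPKM with shRNA1, 28.8, 24.2 and 26.6 RPKM with shRNA2, 11.7, 13 and 10.4 RPKM with scramble shRNA and 16.4 in both libraries with Gfp shRNA, a change of 1.05 ± 0.12 (adjusted p = 0.000671). Aspn had 12.2 to 18.4 RPKM after knockdown, 1.35, 1.95 and 4.01 RPKM with scramble shRNA and 9.43 and 9.57 RPKM with Gfp shRNA. Its groups did not overlap, but both controls differed from each other by 2.06 on the log2 scale (Gfp minus scramble, adjusted p = 0.00391), more than the overall change of 1.94 ± 0.42 (adjusted p = 0.0216). The Gfp and scramble libraries differed past the test in 7 of these 15 genes, against 1 of the 15 that fell. Over all called genes they differed in 122 of 575 that rose and 47 of 478 that fell, beside 892 of all 10516 genes. The share among the genes that fell was thus near that of all genes, and the share among those that rose was higher.

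**Figure D2:**
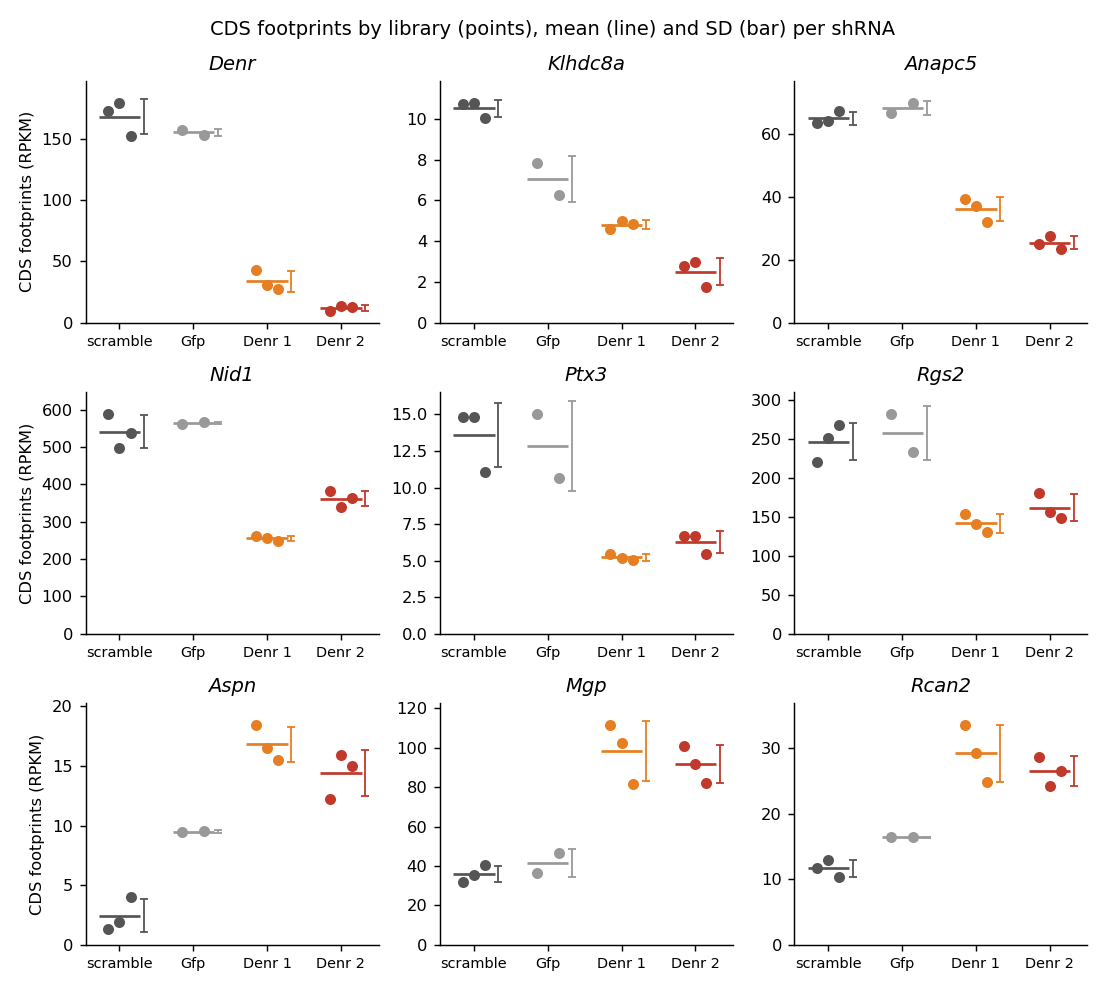
CDS footprints (RPKM, y axis from 0) of 9 genes in each library, by shRNA (x axis; Denr 1 and Denr 2 are both Denr shRNAs). Points are libraries, lines the mean and bars the SD of a group (n = 3, Gfp n = 2). In each of the 9 panels all knockdown points lie on one side of all control points, and in the Aspn panel the Gfp points lie between scramble and knockdown.

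Some of the genes with the highest footprint levels changed by small amounts. Called genes of very high level with lower footprints included Rack1 (-0.21, adjusted p = 0.0803), Rps3 (-0.20, adjusted p = 0.0984), Pgk1 (-0.23, adjusted p = 0.094) and Hsp90ab1 (-0.20, adjusted p = 0.0955). Rack1 and Rps3 encode proteins of the small ribosomal subunit, Pgk1 a glycolytic enzyme and Hsp90ab1 a chaperone. None of these had an RNA change past the test. The 5 of highest level with higher footprints were Cst3, Bgn, Tmbim6, Cav1 and Gabarap, by up to 1.36-fold. Bgn (biglycan), a matrix proteoglycan, rose by 0.44 ± 0.10 (adjusted p = 0.0247), and its RNA by 0.57 (adjusted p = 0.0389).

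RNA and footprint changes moved together in most called genes. Of the 478 genes with fewer footprints, 412 (86.2%) had an RNA change below 0, where 42.9% of all genes did, and of the 575 with more, 562 (97.7%) had an RNA change above 0. The RNA change passed its own test in 70 of the 478 (14.6%, against 0.865% of all genes called lower) and in 107 of the 575 (18.6%, against 2.68% called higher). The RNA calls over all genes, 91 lower and 282 higher, moved with single libraries: they were 35 and 111 without scramble replicate 1, 39 and 100 without scramble replicate 2, 71 and 170 without scramble replicate 3, 167 and 348 without shRNA1 replicate 1, 60 and 195 without shRNA1 replicate 2, 73 and 172, 57 and 155, and 65 and 144 without shRNA2 replicate 1, 2 and 3, and 148 and 586 without Gfp replicate 1. RNA was called higher in 6 of the genes whose footprints fell, and called lower in 0 of those whose footprints rose (limma in both). Over the 10516 genes the footprint change and the RNA change had a Pearson correlation of 0.702 (Spearman 0.656), a description over genes that share the lysates.

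TE was called lower in 50 genes (0.475%) and higher in 0 (0%; limma, with 700 genes at an unadjusted p below 0.05 and 1 gene called higher with a pseudocount of 1). With a library left out the lower count was 14 to 66, with 14 without Gfp replicate 2, 16 without scramble replicate 1, 18 without scramble replicate 2 or shRNA2 replicate 3, 19 without shRNA2 replicate 2, 24 without shRNA2 replicate 1, 29 without Gfp replicate 1, 30 without shRNA1 replicate 3 and 31 without scramble replicate 3. By TE, 26 of the 478 genes with fewer footprints were called (5.44%). In these 26 the median change was -0.44 in footprints and 0.21 in RNA, and 23 had an RNA change above 0. As the RNA value enters TE with a minus sign, picking genes by low TE favours a high RNA change. Picking them by high TE favours a low one, so these RNA directions are no separate result. The lowest TE among genes with fewer footprints belonged to Anapc5, Klhdc8a, Slc41a1, Samd4b and Fbrsl1. Slc41a1 had 14.8, 20.8 and 18.6 RPKM with shRNA1, 14.3, 15.4 and 17.4 RPKM with shRNA2, 28.8, 27.9 and 23.1 RPKM with scramble shRNA and 23.1 and 25 RPKM with Gfp shRNA. The groups did not overlap. Its footprints fell (-0.60 ± 0.10, adjusted p = 0.00743), its RNA rose (0.45 ± 0.08, adjusted p = 0.0149) and its TE fell (-1.05 ± 0.13, adjusted p = 0.00652). Samd4b did likewise, with -0.67 ± 0.10 in footprints, 0.35 ± 0.08 in RNA and -1.03 ± 0.11 in TE (adjusted p = 0.0029, 0.037 and 0.00239). At the other end, Serpinb1a, Nppb, Cxcl5, Cyp3a13 and Ugt1a7c had lower footprints with TE changes of 0.15 to 0.22 and RNA called lower in all 5. Ugt1a7c shares exons with the other genes of its cluster and is uncertain.

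**Figure D3:**
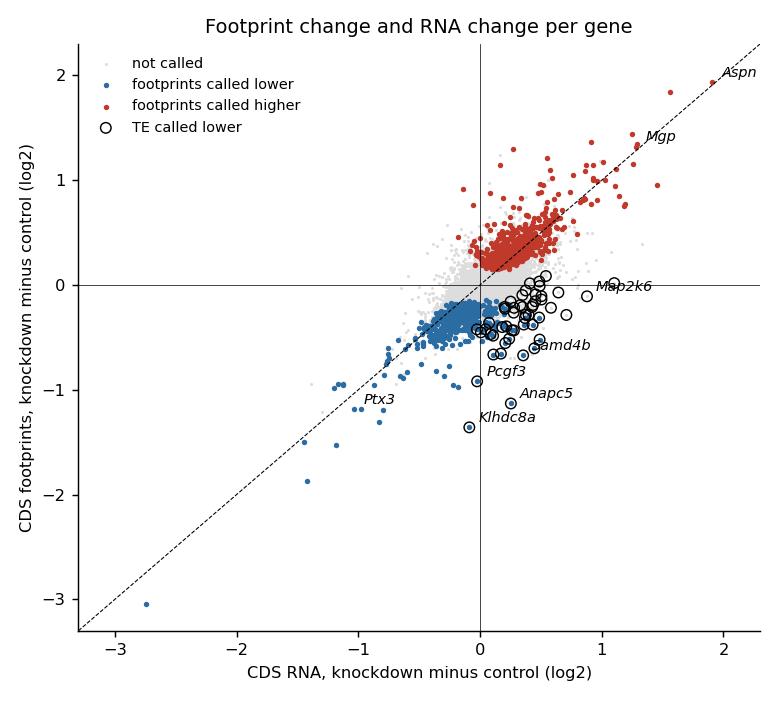
Log2 change of CDS footprints (y axis) against log2 change of CDS RNA (x axis), knockdown minus control, for each gene. Blue and red points are genes with footprints called lower (478) or higher (575), black rings the 50 genes with TE called lower, and the dashed line marks equal changes. Most called genes lie along the line, and the ringed genes lie below it, as a lower TE means.

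For some genes TE was called lower while the footprint change did not pass the test. Map2k6, a kinase upstream of p38, had a footprint change of -0.11 ± 0.10 (adjusted p = 0.531), an RNA change of 0.88 (adjusted p = 0.0132) and a TE change of -0.99 (adjusted p = 0.0118). Atf5, a transcription factor of the stress response, had -0.21 ± 0.09 (adjusted p = 0.188) in footprints, 0.35 (adjusted p = 0.0322) in RNA and -0.56 (adjusted p = 0.0234) in TE. Nor did the footprint changes of Jak2 (-0.20, adjusted p = 0.238), Slc20a1 (-0.16, adjusted p = 0.215), Map2k5 (-0.21, adjusted p = 0.183) and Atf4 (0.24, adjusted p = 0.215) pass it. Vegfd, a lymphangiogenic growth factor, fell by 0.47 ± 0.06 on the log2 scale (adjusted p = 0.00139), from 68.1 to 73.7 RPKM in the controls to 43.8 to 54.4 RPKM, with no RNA change past the test. Its TE change was -0.55 (adjusted p = 0.0125). Clock, the circadian transcription factor, fell by 0.35 ± 0.08 (adjusted p = 0.0335), from 8.96 to 12 RPKM in the controls to 7.94 to 9.55 RPKM, groups that overlapped through Gfp replicate 2. Etaa1 (-0.37, adjusted p = 0.0553) and Rnaseh1 (-0.29, adjusted p = 0.0719) fell as well. The TE changes of Clock (-0.21 ± 0.25, adjusted p = 0.999), Etaa1 (-0.45 ± 0.24, adjusted p = 0.84) and Rnaseh1 (-0.33 ± 0.10, adjusted p = 0.308) did not pass the test. Clock RNA was 15.7 RPKM in shRNA1 replicate 1 and 18.1 in Gfp replicate 1, but 26.9 to 40.9 in the others. Etaa1 RNA was 16.7 and 19.1 RPKM in the same libraries, but 25.7 to 35.6 in the others. The TE tests of both genes thus say little. All genes of this paragraph were named by the study on these samples, so their direction is not independent evidence.

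By function, the genes of cholesterol synthesis and uptake formed the most one-sided list. Of 23 measured members footprints rose in 16 (69.6%) and fell in 0, with a median change of 0.38 (0.34 in RNA, 0.01 in TE). Fdps, which makes farnesyl diphosphate, had 170, 174 and 170 RPKM with shRNA1, 178, 190 and 171 RPKM with shRNA2, 100, 95.9 and 101 RPKM with scramble shRNA and 145 and 132 RPKM with Gfp shRNA. The groups did not overlap, and the Gfp libraries lay between the others, 0.48 above scramble on the log2 scale (adjusted p = 0.0034). Fdps rose by 0.63 ± 0.10 (adjusted p = 0.00521), the sterol reductase Tm7sf2 by 0.64 ± 0.09 (adjusted p = 0.00275) and the cyclase Lss by 0.49 ± 0.09 (adjusted p = 0.0107). The RNA of all of them rose too. Of 16 genes of fatty acid synthesis 5 rose and 0 fell, with Fads2 (0.47 ± 0.06, adjusted p = 0.00247) and Fads1 (0.42 ± 0.07, adjusted p = 0.00743), both desaturases of polyunsaturated fatty acids. With shRNA1 alone 9 of the 23 cholesterol genes were called, without scramble replicate 1 or 2 10 in either case, and with the Gfp libraries alone as control 1.

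Several lists of the protein synthesis machinery held calls in the lower direction. Over all genes 4.55% were called lower, and 5058 of 10516 changes were below 0. Of 69 ribosome biogenesis factors 11 fell (15.9%) and 0 rose, with a median of -0.18 and 66 changes below 0. Imp3, of the U3 snoRNP, had 133 to 169 RPKM after knockdown and 173 to 192 RPKM in the controls and changed by -0.28 ± 0.06 (adjusted p = 0.0247). Wdr12, of the PeBoW complex, changed by -0.27 (adjusted p = 0.0267). Of 22 cytosolic aminoacyl-tRNA synthetases 5 fell (22.7%) and 0 rose, among them Vars (-0.39 ± 0.07, adjusted p = 0.0149), Cars (-0.27) and Aars (-0.28). Of 17 elongation and release factors 3 fell, Denr and Eif2d included, with Eef1b2 the remaining one (-0.36, adjusted p = 0.0352). Cytosolic ribosomal proteins had a median of -0.14 with 65 of 78 changes below 0, but 4 fell (5.13%), a share near that of all genes, and the median of their RNA changes was 0.04. Rpl31 (-0.34 ± 0.07, adjusted p = 0.0242) was the most certain of them. Shares near the background were also found for initiation factors (2 lower and 1 higher of 50), splicing factors (4 lower of 73) and mitochondrial ribosomal proteins (3 lower and 4 higher of 73).
 
The counts of the translation lists moved with the settings. Of the ribosome biogenesis factors 2 were called without scramble replicate 1 or 2 or without shRNA2 replicate 2, 3 without scramble replicate 3 or shRNA2 replicate 1, 7 without shRNA1 replicate 2 or shRNA2 replicate 3, 17 without Gfp replicate 1, 36 without Gfp replicate 2 and 0 with the Gfp libraries alone as control. Of the ribosomal proteins 19 were called once CDS length and GC content had been regressed out of each library, 1 without shRNA1 replicate 1 or 3, shRNA2 replicate 1 or 2 or scramble replicate 1 or 2, 12 without Gfp replicate 1 and 14 without Gfp replicate 2.

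Genes of mitosis fell in 12 of 59 (20.3%) and rose in 0, with a median of -0.17 (RNA -0.12). Top2a, the topoisomerase that resolves sister chromatids, had 148 to 197 RPKM after knockdown and 192 to 233 RPKM in the controls, groups that overlapped in a narrow range, and changed by -0.38 ± 0.08 (adjusted p = 0.0201). The proliferation marker Mki67 changed by -0.30 ± 0.08 (adjusted p = 0.0388) and Cdca2 by -0.31 ± 0.08 (adjusted p = 0.048). Of 46 DNA replication genes 2 fell, Rrm2 (-0.32, adjusted p = 0.026) and Prim2, and 0 rose. The mitosis count was 6 after correction for CDS length and GC content, 2 with shRNA2 alone, 0 with the Gfp libraries alone, 5 without shRNA1 replicate 2 or scramble replicate 3, 6 without shRNA2 replicate 2, 7 without shRNA1 replicate 3, 27 without Gfp replicate 2, and 2 without scramble replicate 1 or 2. Immediate early genes, which growth factors switch on within minutes, fell in 6 of 21 (28.6%) and rose in 0, with Maff (-0.39 ± 0.08, adjusted p = 0.0156), Fosl1 (-0.44 ± 0.10, adjusted p = 0.0287) and Klf2 (-0.34 ± 0.09, adjusted p = 0.0439). Their count was 3 without scramble replicate 1 or 2, without shRNA2 replicate 1 or 3 and with shRNA1 alone, and 0 with the Gfp libraries alone.

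Matrix and adhesion genes split. Of 20 collagens 5 rose (25%) and 0 fell, with a median of 0.16, led by Col11a1 (1.09 ± 0.14, adjusted p = 0.00139), Col4a6 (0.57, adjusted p = 0.037) and Col4a1 (0.29, adjusted p = 0.0439). For Col4a6 the Gfp libraries (14.4 and 15.0 RPKM) lay near the knockdown libraries (14.7 to 18.4 RPKM), above scramble (8.74 to 9.38 RPKM). Of 45 genes in a list of other matrix proteins, which does not hold Mgp and Aspn, 7 fell and 4 rose: Ecm1 and Nid1 fell while Igfbp7 rose (0.38 ± 0.06, adjusted p = 0.00528). Of 32 cadherins and protocadherins 6 rose (18.8%) and 0 fell, at a low median level of 1.83 RPKM and with many shared sequences. Of 33 matrix-modifying enzymes and inhibitors 4 fell and 1 rose, the protease Plat falling (-0.57 ± 0.09, adjusted p = 0.00521) and Mmp11 rising (0.62 ± 0.10, adjusted p = 0.00426). Of 17 genes of the integrin list 3 fell and 1 rose, and of 36 contractile and cytoskeletal genes 7 fell (19.4%) and 5 rose (13.9%). Smooth muscle gamma-actin, Actg2, rose (0.78 ± 0.14, adjusted p = 0.0108), while the actin crosslinker Flna (-0.48 ± 0.09) and the non-muscle myosin Myh9 (-0.36 ± 0.07) fell (adjusted p = 0.0124 for both). Flna had 48.1, 47.2 and 47.7 RPKM with shRNA1, 62.5, 53.9 and 57.4 RPKM with shRNA2, 65.8, 65.7 and 74.6 RPKM with scramble shRNA and 78.8 and 82.4 RPKM with Gfp shRNA. No knockdown library reached a control library.

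Lists of secreted signals and signalling pathways differed in their share of calls, some lying near the background of 4.55% lower and 5.47% higher. Of 30 growth factors and antagonists 6 fell (20.0%) and 2 rose, with Ereg (-0.60 ± 0.13, adjusted p = 0.0214), an EGF receptor ligand, beside Vegfd. Ereg had 38.9 to 54.0 RPKM after knockdown, 58.1 and 49.0 RPKM with Gfp shRNA and 70.1 to 85.7 RPKM with scramble shRNA. Gfp replicate 2 thus lay within the knockdown range. Prl2c3 (-1.50, adjusted p = 0.0225) shares nearly all of its sequence with the other proliferin genes and is uncertain. Its Gfp libraries (14.7 and 11.6 RPKM) lay within the knockdown range (5.56 to 15.6 RPKM), below scramble (29.8 to 40.9 RPKM). Of 10 genes in the chemokine list, which does not hold Ppbp, 3 fell and 1 rose, with Ccl7 (-0.42 ± 0.08, adjusted p = 0.0156), Cxcl5 (-0.95, adjusted p = 0.0468) and Cxcl1 (-1.87 ± 0.39, adjusted p = 0.0202), the last on as few as 4 reads in a library. For Cxcl5 both Gfp libraries (22.5 and 22.1 RPKM) lay within the knockdown range (12.2 to 26.8 RPKM), below scramble (34.3 to 55.9 RPKM). Its controls differed by -0.94 (Gfp minus scramble, adjusted p = 0.05), about as much as the change itself. Of 30 TGF-beta and BMP genes 2 fell (6.67%) and 4 rose (13.3%), and of 30 Wnt genes 0 fell and 4 rose (13.3%), with Lef1, Fzd2 and Gsk3a at 0.18 to 0.37. Ccn2, a target of YAP, rose by 0.68 ± 0.13 (adjusted p = 0.014), the 1 gene of 24 in its list to do so (4.17%), while the cadherin Fat1 fell. The ERK and MAP kinase list had 3 lower (6.25%) and 2 higher (4.17%) of 48, with Dusp10 and Spry2 lower and Mapk3 higher. For Mapk3 the Gfp libraries (103.0 and 101.3 RPKM) lay at the lower end of the knockdown values (101.4 to 117.3 RPKM), above scramble (76.7 to 85.7 RPKM).

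Among stress lists, the NRF2 targets and redox enzymes fell in 5 of 37 (13.5%) and rose in 1, with Gclm (-0.25 ± 0.05, adjusted p = 0.0156) and Gclc (-0.29 ± 0.06, adjusted p = 0.0193), the subunits of the enzyme that limits glutathione synthesis. Of 26 ATF4 target genes 3 rose and 1 fell, with Nupr1 (0.48), Trib3 (0.44) and Ddit4 (0.44) higher and a median of -0.08 over the list. For Ddit4 the controls differed by 0.43 (Gfp minus scramble, limma, adjusted p = 0.0219), about as much as the change itself. Those of Trib3 differed by 0.27 (adjusted p = 0.0985), and those of Nupr1 did not differ past the test (-0.14, adjusted p = 0.636). Cytosolic chaperones fell in 3 of 27 (Hsph1, Hspa4 and Hsp90ab1), while the unfolded protein response had 1 lower of 28 (Sec24d). Of 29 p53 targets 3 fell and 1, Gadd45a, rose (0.82 ± 0.13, adjusted p = 0.00585). The footprints of Gadd45a were 58.7 to 79.7 RPKM after knockdown, 30.3 to 36.5 RPKM with scramble shRNA and 47.3 and 50.0 RPKM with Gfp shRNA, so that both controls differed from each other as well (0.58, adjusted p = 0.00641). The transferrin receptor Tfrc fell (-0.42, adjusted p = 0.0326) and the iron exporter Slc40a1 rose (0.95, adjusted p = 0.0245, at 0.447 RPKM), in a list of 24 iron genes with 1 lower and 2 higher.

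Of 76 subunits of oxidative phosphorylation 0 were called in either direction (limma, 10 at an unadjusted p below 0.05), with a median of 0.04, and Uqcr10 had the lowest p (adjusted p = 0.104). Of 20 glycolysis enzymes 3 fell (15%) and 1 rose (5%), with Ldha (-0.31 ± 0.07, adjusted p = 0.0245) and Hk2 (-0.49 ± 0.12, adjusted p = 0.0345) lower, and of 21 enzymes of the tricarboxylic acid cycle 2 fell, Pcx (-0.54 ± 0.10, adjusted p = 0.0143) among them. Of 45 proteasome subunits 1 fell, of 16 genes of the anaphase-promoting complex 2 fell (12.5%) and 1 rose (6.25%), of 42 lysosome and autophagy genes 2 fell and 3 rose, and of 40 mRNA decay factors 3 fell, Samd4b and Upf1 among them. The core clock list had 2 lower of 24, Clock and Nr1d1 (-0.42 ± 0.07, adjusted p = 0.0111), and 1 higher, Bhlhe40 (0.41, adjusted p = 0.0355). Of 300 Zfp zinc-finger genes 1 fell and 5 rose, of 104 chromatin regulators 3 fell and 4 rose, of 49 mTOR genes 1 fell and 2 rose, of 25 receptor tyrosine kinases 2 fell and 1 rose, and of 24 interferon-stimulated genes 1 rose.

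**Figure D4:**
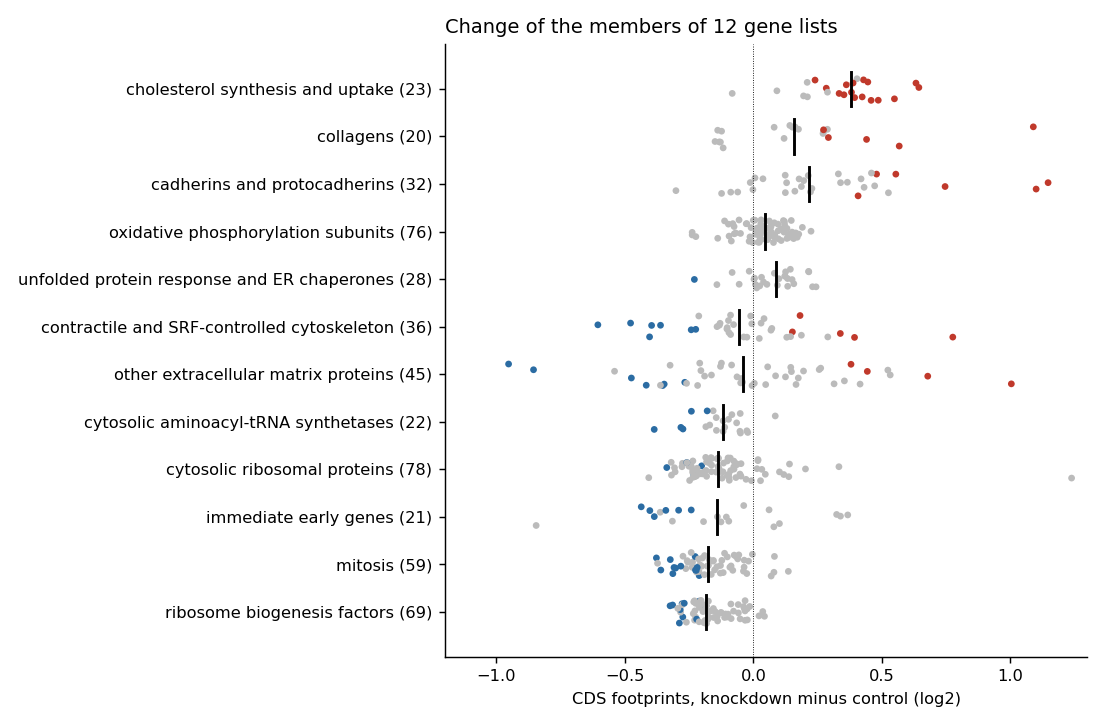
Log2 change of CDS footprints (knockdown minus control, x axis) of each member of 12 gene lists (y axis, number of measured members in brackets). Blue points were called lower, red points higher and grey points neither, and black bars mark the median of a list. The cholesterol list lies to the right, at a median of 0.38, and the ribosome biogenesis and mitosis lists to the left, at -0.18 and -0.17.

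Both Denr shRNAs were set against each other, a contrast without control libraries. CDS footprints differed between them in 1019 genes (9.69%), 422 lower and 597 higher with shRNA2. Without 1 library of the Denr shRNAs the counts were 211 to 267 and 349 to 420, the lower count falling by over 1.5 times whichever was left out (267, 230 and 265 without shRNA1 replicate 1, 2 and 3, and 260, 223 and 211 without those of shRNA2), and the higher count with shRNA2 replicate 2 (356) or 3 (349) left out. With a replicate block they were 874 and 938. Of the genes called between knockdown and control, 75 of 478 that fell (15.7%) and 46 of 575 that rose (8%) differed between the shRNAs. Denr (-1.50, adjusted p = 0.00021), Klhdc8a (-0.95, adjusted p = 0.00506) and Anapc5 (-0.51, adjusted p = 0.00392) were lower with shRNA2. Nid1 (0.50, adjusted p = 0.00137), Ecm1 (0.53, adjusted p = 0.00413) and Serpinb1a (0.53, adjusted p = 0.0383) fell with both shRNAs but were higher with shRNA2 than with shRNA1. For Klhdc8a the change against the 5 controls was -0.88 with shRNA1 and -1.83 with shRNA2, and for Nid1 -1.11 and -0.60. Mgp, with 1.36 and 1.27, did not differ past the test (adjusted p = 0.763).

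Footprints on the 5′ UTR, a region that the CDS values do not hold, could be compared in 5178 genes with at least 20 reads there in at least 9 of the 11 libraries. They were called higher in 1193 (23% of those tested) and lower in 6 (0.116%), with a median change of 0.30. The higher count was 387 without shRNA1 replicate 2, 388 without shRNA2 replicate 2, 435 without Gfp replicate 1, 664 without shRNA1 replicate 3, 726 without scramble replicate 1 and 774 without scramble replicate 3. The 311 genes of this set with fewer CDS footprints had a median 5′ UTR change of 0.11, and 19 of them (6.11%) were called higher. The 219 with more CDS footprints had a median of 0.61, and 144 (65.8%) were called higher. These 5′ UTR changes are not relative to the RNA or the CDS footprints of a gene. Over all 478 genes that fell, the medians were -0.31 in CDS footprints and -0.18 in RNA. Over all 575 that rose they were 0.33 and 0.25, and over all 10516 genes 0.01 and 0.03. The paper compared the ratio of 5′ UTR to CDS footprints, which was not tested here. The genes with fewer CDS footprints differed among themselves by their RNA: where the RNA change was above 0 (55 genes) the 5′ UTR median was 0.29, with 54 above 0, and where it was below 0 (256 genes) the median was 0.07. Of the 26 genes with both fewer CDS footprints and lower TE, 22 were among the 5178. All 22 had a 5′ UTR change above 0 and the median was 0.33, where 91.3% of all 5178 genes had a change above 0. For Anapc5 the 5′ UTR change was 0.29 (adjusted p = 0.432) and for Slc41a1 0.11 (adjusted p = 0.574), neither past the test, while the CDS footprints of both fell.

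The genes that fell had longer coding sequences than those that rose. In the transcript with the longest CDS, the median length was 1848 nt for genes that fell, 1425 nt for genes not called and 1017 nt for genes that rose. In 5 bins of genes by CDS length, the median footprint change went from 0.06 (114 to 762 nt) over 0.03, 0.00 and -0.01 to -0.04 (2544 to 26400 nt), while the RNA medians were 0.04, 0.03, 0.02, 0.02 and 0.03. In the shortest bin 55 genes fell and 183 rose, and in the longest 170 fell and 36 rose. The slope of log2 footprints on log2 length, relative to the mean over libraries, was -0.0156 ± 0.00943 (SD, n = 6) after knockdown, from -0.0340 to -0.00715, and 0.0187 ± 0.0247 (SD, n = 5) in the controls, from -0.0131 to 0.0472. The difference was -0.0343 (exact two-sided permutation test, p = 0.00866), though scramble replicate 2 lay within the knockdown range. The highest slopes, of scramble replicate 3 (0.0472) and Gfp replicate 1 (0.0356), belonged to the deepest libraries (20283926 and 19295876 CDS reads). The others had 10006905 to 13971193. Without scramble replicate 3 the difference was -0.0271, and without Gfp replicate 1 -0.0300 (exact permutation test, p = 0.019 for each). The part of depth was not tested. With shRNA1 alone the difference was -0.0362 (exact permutation test, p = 0.0893) and with shRNA2 alone -0.0323 (exact permutation test, p = 0.0714). The same slopes of the RNA spread more widely, with an SD of 0.0628 after knockdown and 0.0473 in the controls. They ran from -0.117 in shRNA1 replicate 1 and -0.0764 in Gfp replicate 1 to 0.0582 in shRNA2 replicate 2. The RNA values, and the TE made from them, thus hold a spread between libraries that goes with length. After regression on CDS length and GC content in each library, 598 genes fell and 515 rose, of which 403 and 423 were called before. The part of length in the changes of single genes was not tested further.

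**Figure D5:**
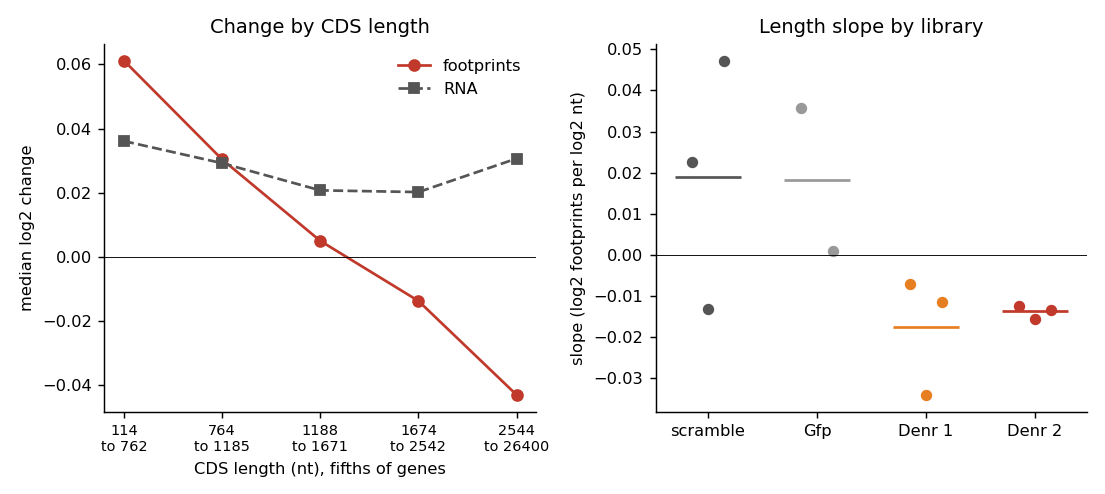
Left, median log2 change (knockdown minus control, y axis) of footprints (red circles) and RNA (grey squares) in 5 bins of genes by CDS length (x axis, nt). Right, slope of log2 footprints, relative to the mean of each gene over the libraries, on log2 CDS length in each library (points) with the mean of each shRNA group (lines). The footprint median falls from 0.06 to -0.04 with length, and all 6 knockdown slopes are below 0. As the slopes are relative to that mean, knockdown and control averages must have opposite signs, so only their difference is informative.

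Sequence features of the called genes were described without a test. A predicted uORF was present in 50.2% of the genes that fell, 51.1% of those not called and 38.2% of those that rose, of 466, 9179 and 560 genes with an annotated 5′ UTR. It was present in 61.9% of the 63 genes whose footprints fell while the RNA change was above 0, and in 73.1% of the 26 with lower TE. The 5′ UTR had a median of 205 nt in the genes that fell, 142 nt in those that rose and 385.5 nt in the 26 with lower TE. A CDS start with a purine at the third base before the ATG and a G after it was found in 41.6% of the genes that fell, 46.3% of those not called and 48.3% of those that rose, and the median GC content of the CDS was 51.2%, 52.5% and 55.3%. As long 5′ UTRs hold more ATG triplets, length and uORFs cannot be told apart here.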

How the data were processed

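RPF-seq and RNA-seq libraries were made from lysate pools of NIH3T3 cells. According to the sources of the study, the authors demultiplexed with CASAVA 1.82, trimmed with cutadapt, aligned with Bowtie2 2.2.1 and TopHat2 2.0.11 to mouse transcripts and GRCm38.p2 (mm10), estimated expressed isoforms with Cufflinks 2.2.1 and counted reads on the CDS and 5′ UTR. The deposited values are RPKM made by the authors from upper-quartile normalised counts (edgeR), after removal of weakly expressed and mitochondrial genes. All 231352 deposited CDS values came out as whole reads (within about 0.01 read, at the smallest region length that made a gene's values whole), which gave the depth. Of 228800 values on the 5′ UTR 222354 did, and the length found was that of the annotation for 2053 of 2563 genes with a single transcript, so 5′ UTR reads can be underestimated.

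Log2 of RPKM + 0.1 was compared between 6 knockdown and 5 control libraries with limma 3.58.1 (R 4.3.3, empirical Bayes with trend, Benjamini-Hochberg over all 10516 genes), and "called", "rose" and "fell" mean an adjusted p below 0.1. The same test was used for RNA, TE and the 5′ UTR (at least 20 reads in at least 9 of 11 libraries), and a fit of the 4 shRNA groups for contrasts between shRNAs. P-values measure the spread between these cultures. Library slopes and medians were compared by the exact two-sided permutation test over libraries (smallest p it allows 0.00216). On simulated data for this comparison of 10516 genes, with 200 changed, 67% of log2 changes of 0.3, 94% of 0.5 and 99.5% of 1 were found. The simulated spread was that between replicates of 1 shRNA. Differences between the shRNAs of a side, which enter the real comparison, were left out, so the real shares may be lower.

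Named genes are those the study names, the 15 largest separated decreases and increases at a mean of at least 1 RPKM, the 5 called genes of highest level and of lowest and highest TE change in each direction, and up to 3 called members of each of 43 gene lists by adjusted p (2 by unadjusted p where none was called). Some genes that this rule names are not reported here. Members and lists were chosen with earlier results of these data known. Alternatives were other pseudocounts, a filter on low values, centred libraries, no trend, voom, a replicate block, libraries left out and single shRNAs. Sequences were taken from GENCODE vM21 transcripts (GRCm38). Python 3.11.15 with numpy 2.4.6, pandas 2.3.3, scipy 1.17.1 and matplotlib 3.10.9 were used.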

Additional observations from a re-analysis of the deposited data

Results flagged for a closer look

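The footprint change of 21 named genes differed between both Denr shRNAs (limma, adjusted p below 0.1 for the difference itself, shRNA2 minus shRNA1 on the log2 scale). The value was below 0 for Denr (-1.50), Klhdc8a (-0.95), Anapc5 (-0.51), Gadd45a (-0.28), Bgn (-0.30) and Trib3 (-0.33). It was above 0 for Serpinb1a (0.53), Ecm1 (0.53), Nid1 (0.50), Tmem119 (0.38), Cd300lb (0.62), Ldha (0.21), Hsph1 (0.24), Map1lc3a (0.52), Plat (0.31), Itgb3 (0.46), Flna (0.28), Ror1 (0.51), Smarcd3 (0.59), Xaf1 (0.48) and Gsta4 (0.35). Denr had the lowest adjusted p of these (0.00021). Denr itself was lower with shRNA2, and its part in the other differences was not tested.

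In 17 of 336 groups tested (168 named genes, 2 groups each), 1 library lay far from the others by Dixon's criterion, where chance alone marks about 1 in 20 groups. Among the knockdown libraries the log2 RPKM values were 5.46 for Vegfd in shRNA2 replicate 1, 10.95 for Rack1 in shRNA1 replicate 3, 1.34 for Cyp3a13 in shRNA2 replicate 3, 10.33 for Cav1 in shRNA1 replicate 3, -0.48 for Phyhd1 in shRNA2 replicate 2, 5.97 for Psmb5 in shRNA1 replicate 2, 7.33 for Anapc16 in shRNA1 replicate 1, 3.21 for Ephb3 in shRNA1 replicate 3 and 1.87 for Zfp868 in shRNA2 replicate 2. Among the control libraries the log2 RPKM values were 3.18 for Clock in Gfp replicate 2, 3.59 for Map2k5 in scramble replicate 3, 4.58 for Serpinb1a in Gfp replicate 1, 6.81 for Scd1 in scramble replicate 2, 5.15 for Mmp28 in scramble replicate 3, 3.88 for Fat1 in scramble replicate 1, 0.86 for Zfp689 in Gfp replicate 1 and 8.94 for Ccl7 in scramble replicate 1. No library was marked for more than 3 genes.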

How the results depend on the processing

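All 159 named genes with a call kept their direction under every alternative run, and 30 kept the call under all of them. Most calls (127) were lost with the Gfp libraries alone as control. Of genes without a call, Map2k6 reversed with scramble alone as control (0.017). The cause was not tested in any of these cases.

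Genes with lower and higher CDS footprints numbered 47 and 45 with Gfp alone as control, 1181 and 1470 with scramble alone, 1235 and 1326 in the fit of 4 shRNA groups, 487 and 330 with shRNA1 alone (40.4% higher), 395 and 379 with shRNA2 alone, 412 and 891 with voom, and 217 to 952 and 267 to 994 with 1 library left out. RNA gave 35 to 167 and 100 to 586 with 1 library left out, with the extremes without scramble replicate 1 and shRNA1 replicate 1 (lower) and without scramble replicate 2 and Gfp replicate 1 (higher). TE gave 14 to 66 and 0 to 6, and 1 higher with a pseudocount of 1. The 5′ UTR gave 1 to 7 and 387 to 1743, and shRNA2 against shRNA1 211 to 267 and 349 to 420.

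With a replicate block, the counts were 873 and 1067 for CDS footprints, 253 and 750 for RNA, 20 and 2271 for the 5′ UTR and 874 and 938 between the shRNAs, with 31 ribosome biogenesis, 23 mitosis and 15 ribosomal protein genes called lower. The replicate numbers are only shared names in the sources: over 15 same-numbered pairs of libraries the deviations from the group means correlated at 0.18 on average, with a lowest value of -0.0034 and 13 above 0.1, and 9 of 11 libraries correlated best with their own number.

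Of the lists, cholesterol genes called higher numbered 1 with Gfp alone, 9 with shRNA1 alone and 10 to 20 with 1 library left out. Ribosome biogenesis genes called lower numbered 0 with Gfp alone, 3 with shRNA1 alone, 48 with scramble alone, 46 with 4 groups and 2 to 36 with 1 library left out. Mitosis genes numbered 0 with Gfp alone, 37 with scramble alone, 32 with 4 groups, 2 with shRNA2 alone, 6 after length and GC regression, 7 without trend and 2 to 27 with 1 library left out. Immediate early genes numbered 0 with Gfp alone, 3 with shRNA1 alone and 3 to 7 with 1 library left out. Ribosomal proteins numbered 0 with Gfp alone, 27 with scramble alone, 23 with 4 groups, 0 with shRNA1 alone, 1 with shRNA2 alone, 1 without trend, 2 with centred libraries, 19 after length and GC regression and 1 to 14 with 1 library left out.

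The difference of library medians, 0.0033, was -0.0019 with shRNA2 alone and ranged from -0.0034 without scramble replicate 3 to 0.0132 without Gfp replicate 1, and was -0.00058 without Gfp replicate 2. The CDS length slope differed by -0.0362 with shRNA1 alone and -0.0323 with shRNA2 alone, neither below 0.05 by the exact permutation test. The Gfp control alone, the fit of 4 groups, the regression on length and GC content, the counts of lists and the slope alternatives were chosen after seeing the data. At 10006905 to 20283926 CDS reads per library, changes of 0.3 on the log2 scale were found in 67% of simulated cases, without differences between the shRNAs of a side. Changes of this size and smaller ones are thus often missed.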
